A study of Mus musculus with 6 samples.

Results

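Among 10 circadian clock genes of cultured mouse hepatic stellate cells, Per2 rose under obeticholic acid (OCA), while no call was made for the other 9. The genes were taken as a list of symbols, Arntl (also called Bmal1), Clock, Per1, Per2, Per3, Cry1, Cry2, Bhlhe40, Nr1d1 and Nr1d2, and all 10 were found among the 24940 genes of the count table. Polyadenylated RNA was sequenced from primary hepatic stellate cells, which store vitamin A beside the liver sinusoids, isolated from female C57BL/6JBomTac mice. In the OCA group, 3 libraries came from cells that received 10 µM OCA, a synthetic bile acid derivative and ligand of the nuclear receptor FXR, for 6 hours. In the DMSO group, 3 libraries came from cells given an equal volume of the solvent dimethyl sulfoxide for the same time. In both groups the cells were 2 days out of the liver and the agent was added to the medium already on them. The labels name no mutation or transgene. Whether A, B and C of a group were separate mice or dishes is not stated, so p-values reflect the spread between the sequenced libraries and that spread may be technical. The labels also do not give the hour of the day, and each group was sampled at a single time, so the phase and amplitude of a rhythm could not be measured.

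The mammalian clock is a transcriptional feedback loop that runs in most cells. BMAL1 and CLOCK bind E-box motifs and switch on the Per and Cry genes, and the PER and CRY proteins then return to the nucleus and block BMAL1 and CLOCK. In a second loop the nuclear receptors REV-ERB alpha and beta, products of Nr1d1 and Nr1d2, repress Arntl at sites that they share with the ROR receptors. Per1 and Per2 also act as entry points of the clock, since signals such as serum, cyclic AMP and glucocorticoids can raise their transcription outside the rhythm. In liver the clock is known for setting daily programmes of bile acid, lipid and glucose metabolism.

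Column totals were 12829226 to 13234570 counts in OCA libraries and 12260882 to 16336240 in DMSO libraries. Markers of stellate cells were abundant, with a summed level of 1601 to 1979 CPM (counts after scaling every library to the same size) in OCA libraries and 1882 to 2016 CPM in DMSO libraries over 8 genes, of which Lhx2 was called higher and Reln lower. The 6 hepatocyte markers summed to 2.53 to 5.93 CPM in OCA libraries and 2.63 to 3.77 CPM in DMSO libraries. The 6 endothelial markers summed to 1.06 to 1.95 CPM under OCA and 0.604 to 1.46 CPM under DMSO, the 6 macrophage markers to 3.06 to 3.72 CPM under OCA and 1.80 to 5.50 CPM under DMSO, and the 4 cholangiocyte markers to 4.35 to 5.61 CPM under OCA and 5.47 to 7.48 CPM under DMSO. Most of the cholangiocyte sum was Spp1, at 4.16 ± 0.581 CPM under OCA and 5.74 ± 0.669 CPM under DMSO (SD, n = 3 each). Krt19 had 0.719 ± 0.242 CPM under OCA and 0.654 ± 0.461 CPM under DMSO. The part of the low levels of these 4 cell types in the results was not tested. The 4 lymphocyte markers reached at most 0.192 CPM in OCA libraries and 0.0651 CPM in DMSO libraries, and the lymphocyte marker Nkg7 and the cholangiocyte marker Krt7 were at 0 in all 6 libraries. The FXR target Abcb11 had 60, 59.5 and 71 counts in OCA A, B and C, against 3, 2 and 1.5 counts in DMSO A, B and C. OCA B and DMSO A lay farthest from the other libraries of their groups: the chi-square per degree of freedom was 8.0 and 6.13 for pairs with OCA B and 5.13 for OCA A with C, and 7.79 and 6.95 for pairs with DMSO A and 4.40 for DMSO B with C. Without both, the number of genes called lower was 605 in place of 384, and Per2 is also given without them.

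All 10 clock genes passed the filter on low counts. Of these, 1 was called higher and 0 lower by edgeR's quasi-likelihood test at a Benjamini-Hochberg adjusted p under 0.05 over all genes, where 2.18% of the 12687 genes tested were called higher, 3.03% lower and 5.2% in either direction. Over all genes that is 276 higher and 384 lower, and with an offset for transcript length in each library 346 higher and 225 lower. Among the 10, the count of 0 lower was also 0 with DESeq2 and with limma-voom, and 0 of the 10 were lower at an unadjusted p under 0.05. At that unadjusted p, 1 of the 10, Per2, passed in either direction, where 19% of all genes tested (2405 of 12687) did. The median log2 fold change of the 10, OCA over DMSO, was -0.0040, beside 0.00076 over all genes tested. The median size of the change, regardless of sign, was 0.027 among the 10 and 0.12 over all genes tested. The latter include genes with few counts, whose changes are less precise, and the sets were not matched for level.

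**Figure D1:**
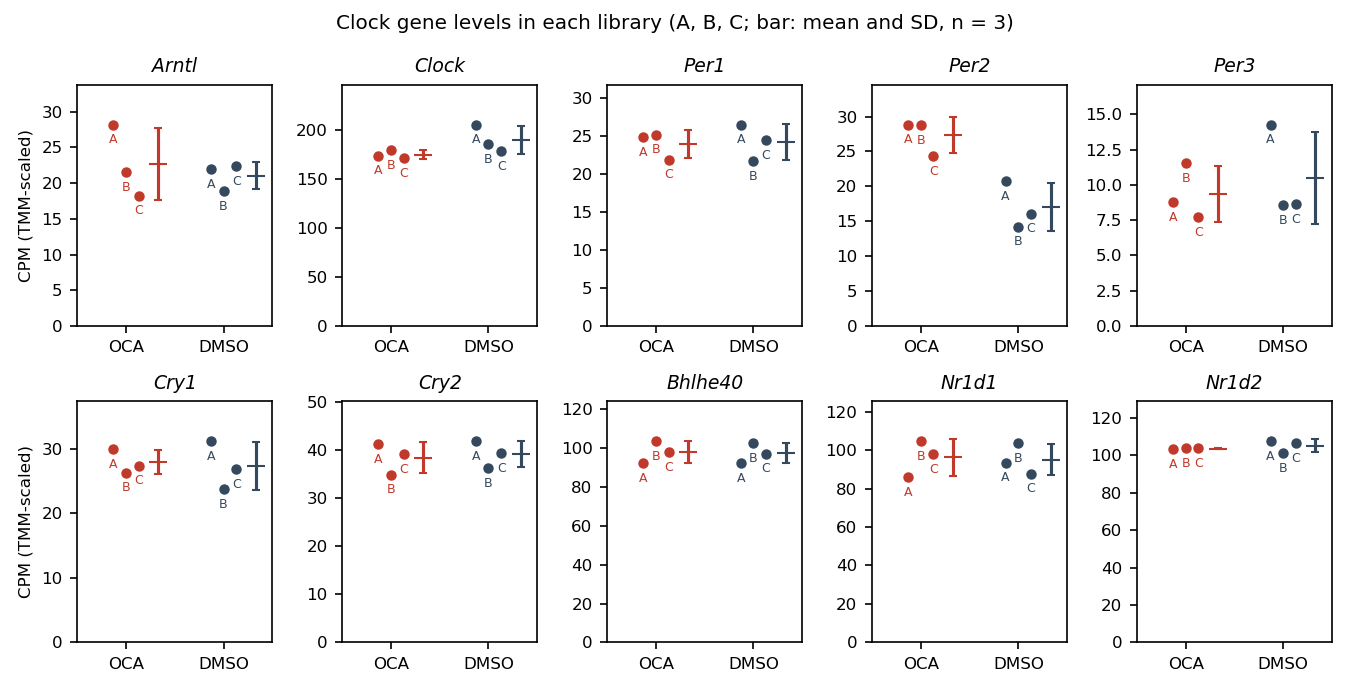
Level of each clock gene in CPM (vertical axes from 0, scaled by TMM) in OCA libraries (red) and DMSO libraries (dark), with points for libraries A, B and C and a bar for the mean and SD (n = 3). The Per2 points lie between 24.3 and 28.8 CPM under OCA, all above the DMSO points at 14.2 to 20.8 CPM, and the groups of the other 9 genes overlap.

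The PER proteins form the repressor complex with the CRY proteins, and mice that lack functional PER2 lose stable daily rhythms in constant darkness. Per2 (NM_011066, mm10 chromosome 1, 91415982 to 91459328, minus strand) had 28.8, 28.8 and 24.3 CPM in OCA A, B and C, against 20.8, 14.2 and 16.1 CPM in DMSO A, B and C. Every OCA library lay above every DMSO library, and DMSO A was the highest of its group. Of the 10 genes Per2 was the 1 whose groups did not overlap. Among all genes tested, groups were separate in this direction in 11.6% and in either direction in 23%. The means were 27.3 ± 2.57 CPM under OCA and 17.0 ± 3.39 CPM under DMSO (SD, n = 3 each), from 384, 375 and 310 counts and from 344.5, 170 and 247 counts. The log2 fold change was 0.67 (SE 0.14, 95% interval 0.39 to 0.96, adjusted p = 0.00617 by edgeR's quasi-likelihood test), which is a 1.60-fold increase with an interval of 1.31 to 1.95. OCA was higher in 9 of 9 pairings across groups, with ratios between 1.17 and 2.03. Of the genes tested, 210 had a larger log2 fold change than Per2.

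Per2 kept its call in each of 6 fits that left out 1 library, with log2 fold changes between 0.57 (without DMSO B, adjusted p = 0.0430 by edgeR) and 0.85 (without DMSO A, adjusted p = 0.00176). Without OCA B and DMSO A together it was 0.81 (SE 0.16, adjusted p = 3.69e-05). Tested against a fold change of 1.2 in place of no change, it was not called (adjusted p = 0.0772 by edgeR's glmTreat). The 500 tested genes closest to Per2 in exonic length (5812 bases) had a median log2 fold change of -0.079. In a fit with an offset for the trend over length in each library the log2 fold change of Per2 was 0.77 (SE 0.13, adjusted p = 0.000562). In bulk RNA a larger share of cells with Per2 and more Per2 RNA in each cell cannot be told apart.

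Per1, a paralog and an immediate-early target of light in the clock of the brain, was not called. Per1 (NM_011065, mm10 chromosome 11, 69098949 to 69109957, plus strand) had 24.8, 25.1 and 21.9 CPM in OCA A, B and C, against 26.5, 21.7 and 24.5 CPM in DMSO A, B and C. The 2 groups covered nearly the same range. Its log2 fold change was -0.018 (SE 0.12, adjusted p = 0.952 by edgeR), and the 95% interval ran from 0.834-fold to 1.17-fold. The lower end of the Per2 interval, 1.31-fold, lay above the upper end of the Per1 interval. It lay below the upper end of the Arntl interval, 1.32-fold.

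Per3 had the lowest and least certain level of the 10. Per3 (NM_001289878, mm10 chromosome 4, 151003655 to 151044665, minus strand) had 8.78, 11.5 and 7.69 CPM in OCA A, B and C, against 14.3, 8.57 and 8.62 CPM in DMSO A, B and C. OCA B and DMSO A were the high libraries of their groups. Its log2 fold change was -0.17 (SE 0.22, adjusted p = 0.711 by edgeR, 95% interval 0.646-fold to 1.22-fold), and without DMSO A it was 0.12. At its standard error, a 1.69-fold difference would have been needed to reach the p of the last gene called, against 1.32-fold for Per1 and 1.39-fold for Per2.

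CRY1 and CRY2 are the strong repressors of the loop and the partners of PER2. Cry1 (NM_007771, mm10 chromosome 10, 85131700 to 85185054, minus strand) had 29.9, 26.3 and 27.4 CPM in OCA A, B and C, against 31.1, 23.8 and 26.8 CPM in DMSO A, B and C (log2 fold change 0.026, SE 0.11). Cry2 (NM_009963, mm10 chromosome 2, 92403647 to 92434069, minus strand) had 41.2, 34.9 and 39.2 CPM under OCA, against 41.8, 36.3 and 39.3 CPM under DMSO (log2 fold change -0.028, SE 0.10). The groups overlapped for both genes, and letter by letter the Cry2 values differed by less than the spread within a group. The 95% intervals were 0.862-fold to 1.2-fold for Cry1 and 0.854-fold to 1.13-fold for Cry2, with adjusted p = 0.930 and 0.909 by edgeR. A noncoding RNA on the opposite strand, D930015M05Rik, shares 295 exonic bases with Cry2 in the GENCODE M21 annotation. It averaged 1.94 ± 0.436 CPM under OCA and 2.05 ± 0.321 CPM under DMSO (SD, n = 3 each), and reads from the shared bases cannot be assigned to a strand here.

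Short stretches upstream of Per1, Cry1 and Per3 are printed because they hold motifs by which the loop can act on its own genes. The choice did not use the calls. The upstream sequence of Per2 was not searched, so no contrast with Per2 can be drawn. The sequences are from RefSeq on GRCm38.p6, the build also called mm10, and 8 of the 10 genes matched an entry; Per2 and Bhlhe40 were not matched. Each window ran from 250 bases before to 50 bases after the start site. Capitals mark the E-box CACGTG in Per1 and Cry1 and the D-box TTATGTAA in Per3, the site of DBP, TEF, HLF and NFIL3. The stretch of Per1 lies at chr11:69098743-69098828 (plus strand), that of Cry1 at chr10:85185069-85185154 (minus strand) and that of Per3 at chr4:151044776-151044910 (minus strand).
Per1: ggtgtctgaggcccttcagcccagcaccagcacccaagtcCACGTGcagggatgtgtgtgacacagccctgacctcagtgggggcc
Cry1: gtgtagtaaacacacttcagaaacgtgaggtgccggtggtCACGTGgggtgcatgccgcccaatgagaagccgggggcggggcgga
Per3: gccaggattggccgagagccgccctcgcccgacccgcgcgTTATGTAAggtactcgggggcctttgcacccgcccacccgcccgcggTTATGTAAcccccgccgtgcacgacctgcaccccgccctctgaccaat

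The E-box began 166 bases before the start site in Per1 and 60 bases before it in Cry1, and the 2 D-boxes of Per3 began 205 and 158 bases before it. Both strands were searched. CACGTG was present in 7.15% of all 32851 windows of this length and TTATGTAA in 0.938%. Tested genes with CACGTG in a window numbered 1186, of which 2.28% were called higher and 3.29% lower. The shares were 2.1% and 2.98% of the 8686 tested genes whose windows lacked it. Tested genes without an entry, Per2 among them, were left out of this comparison. The half-site AGGTCA, a core of REV-ERB, ROR and FXR elements, was found in the windows of Per1 and Nr1d2 and in 16.3% of all windows. The half-site TGACG of the cyclic AMP response element was found in those of Per1, Cry1 and Cry2 and in 20.8% of all windows. The full element TGACGTCA, which contains that half-site, was in none of the 8 windows and in 1.79% of all. The FXR inverted repeat is AGGTCA and TGACCT with 1 base between them. The glucocorticoid palindrome is AGAACA and TGTTCT with 3 bases between them. Exact copies were in none of the 8 windows and each in 0.00913% of all. At so low a share, 8 windows cannot show whether such sites are lacking.

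The positive limb, the activators of the loop, was not called in either gene, and at an unadjusted p under 0.05 neither passed. Clock (NM_001289826, mm10 chromosome 5, 76209868 to 76304792, minus strand), which encodes a histone acetyltransferase and the partner of BMAL1, had 173.6, 179.6 and 170.9 CPM in OCA A, B and C, against 205.2, 185.3 and 178.0 CPM in DMSO A, B and C. OCA B lay above DMSO C, so the groups overlapped, and OCA was higher in 1 of 9 pairs. The log2 fold change was -0.12 (SE 0.07, adjusted p = 0.359 by edgeR), with an interval of 0.836-fold to 1.02-fold. Its transcript is the longest of the 10, at 9719 bases, and the 500 tested genes closest to it in length had a median log2 fold change of -0.17. With the length offset its log2 fold change was 0.063 (SE 0.06).

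Arntl (NM_007489, mm10 chromosome 7, 113207465 to 113314126, plus strand) had 28.2, 21.6 and 18.3 CPM in OCA A, B and C, against 21.9, 18.9 and 22.3 CPM in DMSO A, B and C. OCA A was the highest of the 6 libraries and OCA C the lowest, so the OCA libraries spanned the whole range of the DMSO libraries. The log2 fold change was 0.10 (SE 0.14, adjusted p = 0.743 by edgeR), with an interval of 0.872-fold to 1.32-fold, and without OCA A it was -0.085. Gm45355 shares 33 exonic bases with Arntl in GENCODE M21, and for Per1, Per2, Per3, Cry1, Clock and Nr1d2 no shared base was found.

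The repressor genes of the second loop and the E-box competitor Bhlhe40 were the most precisely measured of the 10 together with Clock. Nr1d1 (NM_145434, mm10 chromosome 11, 98767932 to 98775377, minus strand), which encodes the heme-sensing repressor REV-ERB alpha, had 86.0, 104.6 and 98.0 CPM in OCA A, B and C, against 93.5, 103.6 and 87.8 CPM in DMSO A, B and C. Nr1d2 (NM_011584, mm10 chromosome 14, 18204056 to 18239106, minus strand), which encodes REV-ERB beta, had 103.2, 103.9 and 103.7 CPM under OCA, against 107.5, 101.0 and 106.5 CPM under DMSO. The Nr1d2 values of OCA libraries were nearly identical and lay inside the range of the DMSO libraries. The log2 fold changes were 0.020 (SE 0.08) for Nr1d1 and -0.022 (SE 0.06) for Nr1d2, with adjusted p = 0.926 and 0.893 by edgeR. The intervals ran from 0.902-fold to 1.14-fold and from 0.897-fold to 1.08-fold.

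Nr1d1 overlaps the thyroid hormone receptor gene Thra on the opposite strand, with 263 of its 3077 annotated exonic bases shared in GENCODE M21. The sources used here do not give a strand setting for the counting, so reads from those bases cannot be told apart. Thra had 75.6 ± 3.57 CPM under OCA and 72.3 ± 6.70 CPM under DMSO (SD, n = 3 each), a log2 fold change of 0.066 (SE 0.08).

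Bhlhe40 (NM_011498, mm10 chromosome 6, 108660629 to 108666925, plus strand) encodes DEC1, a basic helix-loop-helix repressor that competes with BMAL1 and CLOCK for E-boxes. It had 92.1, 103.4 and 97.9 CPM in OCA A, B and C, against 92.1, 102.4 and 97.0 CPM in DMSO A, B and C. Libraries with the same letter had nearly equal values, and the log2 fold change was 0.011 (SE 0.07, adjusted p = 0.955 by edgeR, interval 0.909-fold to 1.12-fold). The antisense RNA 0610040F04Rik, which shares 118 exonic bases with it, was at 3.72 ± 0.235 CPM under OCA and 3.72 ± 0.272 CPM under DMSO (SD, n = 3 each).

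**Figure D2:**
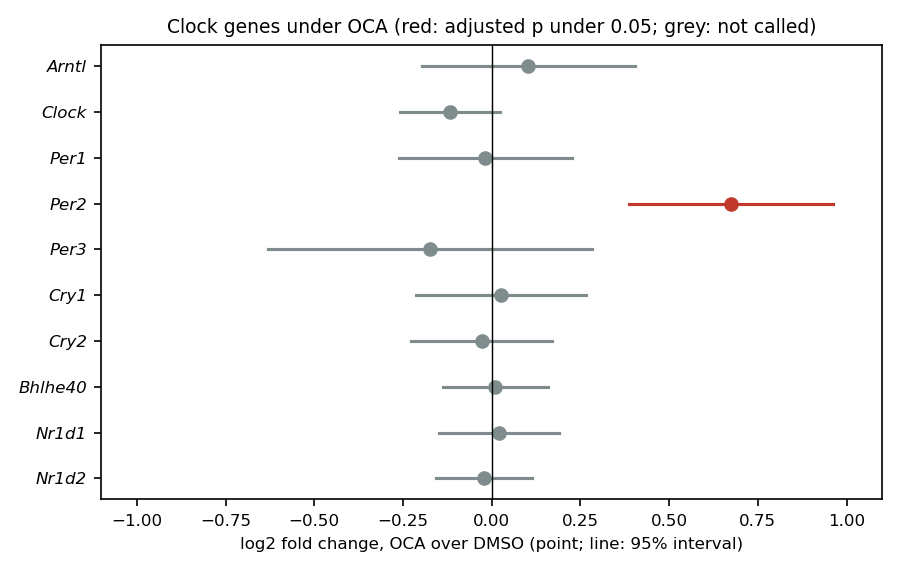
Log2 fold change of OCA over DMSO for the 10 clock genes (point) with its 95% interval (line), red where the adjusted p is under 0.05. The interval of Per2, 0.39 to 0.96, lies to the right of 0 and the other 9 intervals include 0, from the narrow one of Nr1d2 (-0.16 to 0.11) to the wide one of Per3 (-0.63 to 0.28).

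Set against each other within a library, which needs no scaling between libraries, Per2 stood higher against each other clock gene in OCA libraries than in DMSO libraries. In OCA libraries there were 1.11 to 1.16 Per2 counts for each Per1 count, against 0.656 to 0.786 in DMSO libraries. Against Cry1 the ratio was 0.890 to 1.09 in OCA libraries and 0.599 to 0.668 in DMSO libraries. Against Nr1d1 it was 0.248 to 0.335 in OCA libraries and 0.137 to 0.222 in DMSO libraries. In 9 of 9 such ratios the OCA libraries lay above the DMSO libraries, with differences of the mean log2 ratio between 0.61 (Per2 over Arntl) and 0.84 (Per2 over Per3). Per2 was set in the numerator because it was the called gene, so these ratios describe the same difference without scaling and are no further evidence for it. For Per2 over Per1 the difference was 0.71, and it stayed between 0.66 and 0.79 when each library was left out in turn.

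**Figure D3:**
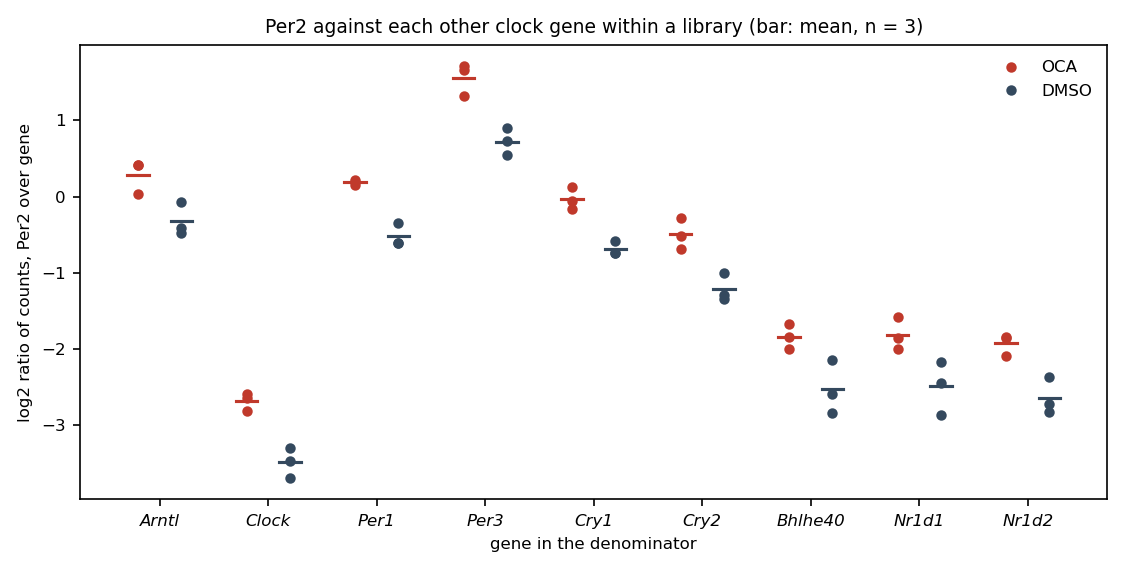
Log2 ratio of Per2 counts to the counts of each other clock gene within the same library, with OCA libraries (red) left of DMSO libraries (dark) and a bar for the mean (n = 3). In all 9 columns the lowest OCA point is above the highest DMSO point, for example 0.15 to 0.21 under OCA and -0.61 to -0.35 under DMSO for Per2 over Per1.

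Per length of transcript, Nr1d1, Bhlhe40 and Nr1d2 stood at the top of the 10 and the Per genes at the bottom, in the same order in both groups. Levels are in counts per kilobase of the row's RefSeq transcript in a library scaled like CPM (RPKM, mean ± SD, n = 3 each), and would shift with another transcript length. Nr1d1 had 34.9 ± 3.43 RPKM under OCA and 34.5 ± 2.91 RPKM under DMSO. Bhlhe40 had 31.5 ± 1.82 RPKM under OCA and 31.3 ± 1.65 RPKM under DMSO, and its range overlapped that of Nr1d1 in both groups. Next came Nr1d2, with 22.4 ± 0.0723 RPKM under OCA and 22.7 ± 0.756 RPKM under DMSO, and Clock, with 18.0 ± 0.456 RPKM under OCA and 19.5 ± 1.45 RPKM under DMSO, each apart from its neighbours. Cry2 had 9.64 ± 0.813 RPKM under OCA and 9.82 ± 0.695 RPKM under DMSO and overlapped Cry1, which had 9.28 ± 0.619 RPKM under OCA and 9.07 ± 1.24 RPKM under DMSO. Arntl, with 7.86 ± 1.75 RPKM under OCA and 7.29 ± 0.661 RPKM under DMSO, overlapped Cry1 in OCA libraries but not in DMSO libraries. Per1 had 5.16 ± 0.391 RPKM under OCA and 5.21 ± 0.520 RPKM under DMSO. Per2, the ninth, had 4.70 ± 0.442 RPKM under OCA and 2.93 ± 0.583 RPKM under DMSO. Its range overlapped that of Per1 in OCA libraries (4.19 to 4.96 RPKM for Per2, 4.71 to 5.42 RPKM for Per1) and not in DMSO libraries (2.45 to 3.58 RPKM for Per2, 4.67 to 5.70 RPKM for Per1). Per3 was lowest, with 1.55 ± 0.329 RPKM under OCA and 1.74 ± 0.544 RPKM under DMSO. The mean of Nr1d1 was 22.5 times that of Per3 under OCA and 19.8 times under DMSO.

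The wider clock pathway was read from lists by role, which were chosen with earlier results of these data known. Of 53 tested genes outside the 10, 3 were called higher and 2 lower, where the shares over all genes tested were 2.18% and 3.03%. Their median log2 fold change was 0.0082. At an unadjusted p under 0.05 the count in either direction was 15 of 53, beside 19% of all genes tested. The 5 called genes stood in the lists of clock outputs and of signals that feed the clock. The other lists held 0 called genes outside the 10. Each has 1 to 13 tested genes outside the 10, and with 5.2% of all genes tested called, 0 calls is near that share. Arntl2 and Npas2, paralogs of Arntl and Clock, were not called: Npas2 had 5.27 ± 0.965 CPM under OCA and 4.18 ± 0.602 CPM under DMSO, and Arntl2 had 1.98 ± 0.994 CPM under OCA and 2.26 ± 0.923 CPM under DMSO. At an unadjusted p under 0.05, 0 of these 2 passed. The repressor genes Bhlhe41, which encodes DEC2, and Ciart, which encodes CHRONO, were not called either. Bhlhe41, the paralog of Bhlhe40, had 39.6 ± 4.26 CPM under OCA and 34.2 ± 1.78 CPM under DMSO, with a log2 fold change that edgeR put at 0.21 (SE 0.10, adjusted p = 0.254), and Ciart had 3.71 ± 0.899 CPM under OCA and 3.45 ± 1.46 CPM under DMSO (SD, n = 3 each). The groups of Bhlhe41 did not overlap, and it was the 1 of these 2 with an unadjusted p under 0.05.

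Rora, which encodes an activator of Arntl that competes with the REV-ERBs, was tested and not called. It had 80.1 ± 3.56 CPM under OCA and 89.4 ± 10.1 CPM under DMSO (SD, n = 3 each), and the groups overlapped. The log2 fold change was -0.16 (SE 0.08, adjusted p = 0.286 by edgeR), or 0.045 with the length offset. Rorb had 0 to 4 counts in OCA libraries and 3 to 7 in DMSO libraries, so it was not tested. Of the 4 tested D-box factors, 0 were called and 1 had an unadjusted p under 0.05, beside 5.2% and 19% of all genes tested. The activator Tef had 105.8 ± 5.07 CPM under OCA and 100.8 ± 1.38 CPM under DMSO (SD, n = 3 each). Nfil3, the repressor at D-boxes, had 24.4 ± 2.13 CPM under OCA and 29.2 ± 1.2 CPM under DMSO, and the groups did not overlap (log2 fold change -0.26, SE 0.11, adjusted p = 0.190 by edgeR).

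The kinases, ubiquitin ligases and corepressors that set the stability and activity of PER, CRY and REV-ERB had 0 of 13 tested genes called, where 5.2% of all genes tested were called. At an unadjusted p under 0.05 the count was 3 of 13, near the 19% over all genes tested. Their median log2 fold change was 0.0082, with 7 above 0, 6 below and a range of -0.19 to 0.61. The highest was that of Usp2 (SE 0.25), which was not called (adjusted p = 0.184 by edgeR) though its groups did not overlap. Csnk1a1, a casein kinase gene, had 671 ± 17.7 CPM under OCA and 579 ± 46.0 CPM under DMSO (SD, n = 3 each), with no overlap between the groups (log2 fold change 0.21, SE 0.08, adjusted p = 0.126 by edgeR). It was called with DESeq2 (adjusted p = 0.0324) and, by edgeR, without DMSO B (adjusted p = 0.0170). With no filter on low counts it was also called (adjusted p = 0.0429 by edgeR). Ncor1, the corepressor of the REV-ERBs, had 342 ± 10.1 CPM under OCA and 324 ± 18.2 CPM under DMSO.

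Among 13 tested clock-controlled output genes, 2 fell and 0 rose by edgeR, where 3.03% of all genes tested were called lower and 2.18% higher. At an unadjusted p under 0.05 the count in either direction was 3 of 13, near the 19% over all genes tested. Klf10, a repressor of metabolic genes that is also a TGF-beta response gene, had 75.7, 90.9 and 74.8 CPM in OCA A, B and C, against 109.4, 105.1 and 99.2 CPM in DMSO A, B and C. Its log2 fold change was -0.38 (SE 0.08, adjusted p = 0.00741 by edgeR). The adjusted p was 0.0546 when OCA A was left out and 0.0553 when OCA C was. Pdk4, a kinase gene that restrains glucose oxidation, had 16.2, 18.6 and 18.2 CPM under OCA, against 23.7, 26.3 and 24.3 CPM under DMSO. Its log2 fold change was -0.48 (SE 0.12, adjusted p = 0.0219 by edgeR). The call was not made when OCA A, OCA C, DMSO B or DMSO C was left out (adjusted p between 0.0525 and 0.0906). Both genes had all OCA libraries below all DMSO libraries. Groups were separate in that direction in 11.3% of all genes tested.

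The signals known to raise Per2 outside the rhythm were read from 2 further lists, in which most genes were not called. Both lists were chosen with earlier results of these data known. Their counts beside the shares over all genes are therefore a description and no evidence. Of 12 cyclic AMP and serum response genes 1 rose, 0 fell and 11 did not pass, with a median log2 fold change of -0.048, where 2.18% of all genes tested were called higher. At an unadjusted p under 0.05 the count was 5 of 12, beside 19% over all genes tested, and 4 of these 5 were lower under OCA. Ier2, an immediate-early gene, rose to 60.9 ± 2.75 CPM under OCA, against 47.3 ± 5.31 CPM under DMSO (SD, n = 3 each, log2 fold change 0.36, SE 0.09, adjusted p = 0.0216 by edgeR). It was not called when OCA A (adjusted p = 0.0960) or DMSO B (adjusted p = 0.0962) was left out. Of the 5 genes with an unadjusted p under 0.05, the 4 with a negative log2 fold change were Sik1, Nr4a3, Junb and Egr1. They were named after their values were seen, and none of them was called. In the whole list, 6 log2 fold changes were below 0 and 6 above. Sik1, a kinase gene induced by cyclic AMP, had 33.3 ± 5.37 CPM under OCA and 42.5 ± 1.55 CPM under DMSO (SD, n = 3 each, log2 fold change -0.35, SE 0.11, adjusted p = 0.0599 by edgeR). The immediate-early transcription factor genes had log2 fold changes of -0.67 (Nr4a3, SE 0.25), -0.19 (Junb, SE 0.07) and -0.26 (Egr1, SE 0.11), with adjusted p between 0.112 and 0.215 by edgeR. The groups were separate, with OCA lower, for Sik1, Nr4a3 and Junb, and overlapped for Egr1. In the same list they were separate with OCA higher for Ier2, Dusp1 and Srf. Over all genes tested, groups were separate with OCA lower in 11.3% and with OCA higher in 11.6%. Of 9 glucocorticoid response genes 2 rose, 0 fell and 7 did not pass, with a median log2 fold change of 0.076, where 2.18% of all genes tested were called higher and 3.03% lower. At an unadjusted p under 0.05 the count was 2 of 9, near the 19% over all genes tested. Sgk1, a serum- and glucocorticoid-regulated kinase gene, had 171.7, 187.8 and 175.4 CPM in OCA A, B and C, against 124.2, 116.5 and 119.9 CPM in DMSO A, B and C (log2 fold change 0.57, SE 0.06, adjusted p = 1.02e-05 by edgeR). Errfi1, which encodes a feedback inhibitor of the EGF receptor, had 201.4, 232.9 and 228.5 CPM under OCA, against 162.0, 159.7 and 148.0 CPM under DMSO (log2 fold change 0.50, SE 0.07, adjusted p = 0.000153 by edgeR). Both genes had all OCA libraries above all DMSO libraries and kept their calls whichever library was left out, with the highest adjusted p at 0.000444 for Sgk1 and 0.00512 for Errfi1 by edgeR. In the whole list, 6 log2 fold changes were above 0 and 3 below. Those below were Zbtb16 (-0.30, SE 0.22), Fkbp5 (-0.10, SE 0.08) and Klf9 (-0.08, SE 0.07). They were named after their values were seen, and none of them was called. Tsc22d3 was not called either (0.043, SE 0.09). Tsc22d3, Klf9 and Cdkn1a stand both in this list and among the output genes.

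**Figure D4:**
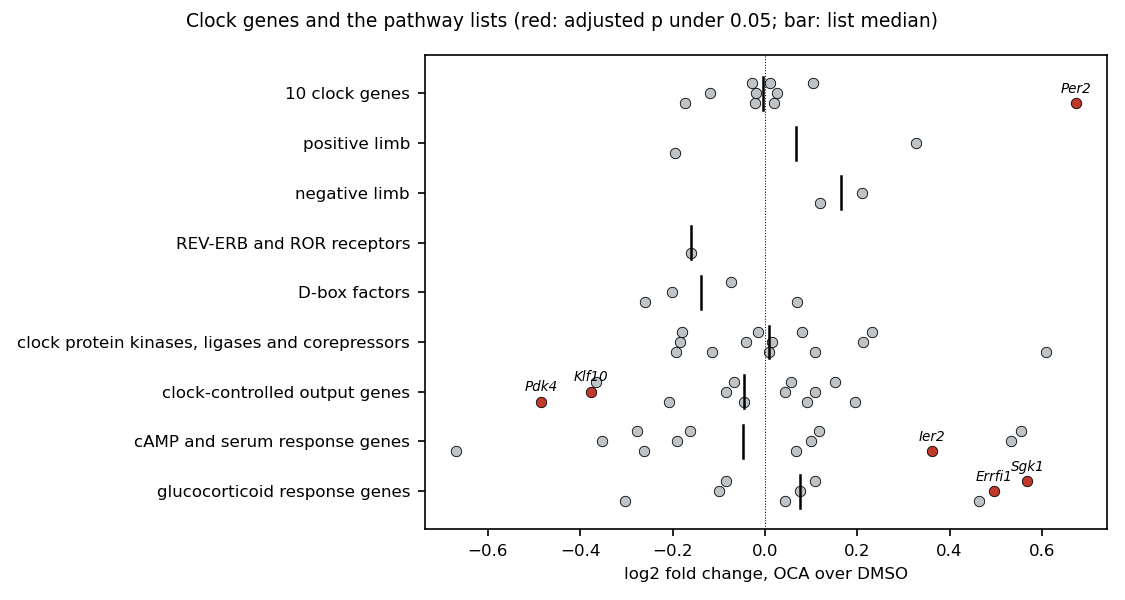
Log2 fold change of OCA over DMSO for each tested gene of the 10 clock genes and of the pathway lists without them (points, red where the adjusted p is under 0.05), with a bar at each list's median. Per2, at 0.67, stands apart from the other 9 clock genes (-0.17 to 0.10), and the called genes of the lists are Klf10, Pdk4, Ier2, Sgk1 and Errfi1.

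The genes most like each of the 3 clock genes with the smallest p were found from log2(CPM + 1) profiles over the 6 libraries, each centred on its own mean, among 10735 tested genes with a mean of at least 5 CPM. For Per2 these were Ankrd55, Sema6c and Mmp11, with root mean square differences of 0.070, 0.084 and 0.091 on the log2 scale. Their log2 fold changes were 0.68, 0.78 and 0.57, a likeness to Per2 that the choice by profile fixes. Ankrd55 had 19.6, 16.7 and 15.5 CPM in OCA A, B and C, against 12.6, 9.16 and 10.3 CPM in DMSO A, B and C. For Clock the nearest were Ankfy1, Mon2 and Abl1 (0.010, 0.016 and 0.017), whose transcripts are 8007, 9243 and 7353 bases long. For Per3 they included Ptpn4 (0.071) and B930095G15Rik (0.099). All of these genes share the 6 libraries with the genes they resemble.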

How the data were processed

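Members and lists were chosen with earlier results of these data known. The authors deposited 1 table of exon counts per gene, described as unadjusted, on mouse build mm10 per the file headers and name; the tools were STAR and HOMER, per the submitters' processing notes. The sources used here give neither tool versions nor the strand setting nor how duplicate reads were handled. The deposited expected counts come in steps of 0.5 and were not normalized. They were rounded to whole numbers (ties to even) for the tests; CPM and RPKM used the unrounded values. Between 26.5% and 29.8% of values per column were not whole, and 0 columns of other samples were left out. Sample titles linked columns to samples.

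OCA was compared with DMSO in edgeR 4.0.16 (R 4.3.3): filterByExpr, TMM scaling, glmQLFit and glmQLFTest, two-sided, without a block, Benjamini-Hochberg adjustment over 12687 genes, threshold 0.05. The SE is the log2 fold change divided by the square root of F, and 95% intervals use the test's degrees of freedom. The fit was tested on simulated data. A count of 3 corresponds to 0.184 to 0.245 CPM. Within a group, libraries differed beyond sampling noise (chi-square per degree of freedom 4.40 to 8.00). Named were all 10 members, all list genes called or, in a list with none, up to 2 with the highest mean CPM, and the 3 genes most like each of 3 members. Some genes that this rule or the lists hold are not reported here. Alternatives were DESeq2 1.42.0, limma-voom (limma 3.58.1), other scalings, filters and rounding, robust estimation, a replicate block, a minimum fold of 1.2, length offsets (a loess curve per library) and left-out libraries. Promoter windows came from RefSeq and overlaps from GENCODE M21.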

Additional observations from a re-analysis of the deposited data

How the results depend on the processing

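Per2 was called higher in 18 of 19 alternatives (log2 fold change 0.57 to 0.85, adjusted p between 1.59e-05 and 0.0430). The exception was the test against a fold of 1.2, with 0 clock genes called higher. The other 9 clock genes were called in 0 alternatives, with log2 fold changes between -0.35 and 0.24. No sample pairing by the letters A, B and C is stated. Deviations of same-letter libraries correlated at 0.011, -0.047 and 0.090 over genes. Libraries with different letters correlated between -0.135 and 0.118, so these values cannot show whether the letters pair the libraries. With the replicate block Per2 had a log2 fold change of 0.69 (adjusted p = 0.00182 by edgeR), and 306 genes were called higher and 508 lower.

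Signs of uncalled genes near 0 turned, and the cause was not tested. With length offsets Clock was 0.063, Per1 0.036, Cry2 0.0039, Nr1d2 0.032 and Rora 0.045. Without OCA B and DMSO A together Per1 was 0.015, Cry2 0.088, Bhlhe40 -0.068 and Nr1d1 -0.054. With upper quartile scaling Bhlhe40 was -0.0010. Leaving out each library in turn gave Arntl -0.085 to 0.24, Per1 -0.088 to 0.051, Per3 -0.35 to 0.12, Cry1 -0.059 to 0.14, Cry2 -0.083 to 0.038, Bhlhe40 -0.030 to 0.052, Nr1d1 -0.044 to 0.094, Arntl2 -0.68 to 0.085 and Ciart -0.16 to 0.45.

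Counts over all genes (276 higher, 384 lower) depended on single libraries, with 161 to 363 higher and 104 to 758 lower when each was left out. The number higher was 161 when OCA A was left out and 164 when DMSO C was. The number lower was 104 when OCA A or DMSO A was left out, 758 for OCA B, 126 for OCA C, 202 for DMSO B and 230 for DMSO C. The test against a fold of 1.2 called 101 higher and 16 lower, no filter called 703 lower, length offsets 346 higher and 225 lower, and leaving out OCA B and DMSO A 605 lower. Of the other pathway genes 2 were lower, 0 to 3 when each library was left out (0 without OCA A or OCA C, 1 without DMSO B or DMSO C), 4 without OCA B and DMSO A and 0 against a fold of 1.2. Npas2, Arntl2 and Ciart had no value under the filter of a mean of at least 5 CPM. Medians over all genes moved by less than 0.1 under every scaling. The least precise clock gene was Per3, with an SE of 0.22.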
